A study of Mus musculus with 9 samples.

Results

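Integrin and laminin subunit genes were followed across Dmdmdx mouse embryonic fibroblasts and their derivatives treated with MyoD. The members were the protein-coding genes with the symbols of integrin alpha chains (18 genes), integrin beta chains (8 genes) and laminin alpha (5 genes), beta (3 genes) and gamma (3 genes) chains. These were 37 of the 35675 genes measured, of which 21959 were protein coding. Every one of the 37 was found, and 34 had enough counts to be tested. Itgad, Itgae and Itgax were too low.

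Integrins are receptors of the cell surface, each made of an alpha and a beta chain, which tie the matrix outside the cell to the actin cytoskeleton inside it. Laminins are trimers of an alpha, a beta and a gamma chain and form the sheet of the basement membrane that wraps each muscle fibre. In skeletal muscle the alpha 7 beta 1 integrin binds laminins that carry the alpha 2 chain, alongside the dystroglycan complex that dystrophin anchors. Loss of the alpha 2 laminin chain or of alpha 7 integrin causes congenital muscle disease.

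Polyadenylated RNA was sequenced from 9 libraries in 3 groups of 3. The first group held untreated mouse embryonic fibroblasts (MEF), the second the same cells with MyoD, a transcription factor that can start the muscle programme in fibroblasts, and the third the cells with MyoD plus the small molecules F/R/C, letters the labels leave unexplained. The comparisons ask how MyoD, alone or with F/R/C, altered these genes during reprogramming toward myogenic cells. All 9 libraries share the Dmdmdx genotype, so no library comes from cells with intact Dmd, the dystrophin gene. The labels give neither the age of the embryos nor how MyoD was delivered. Nor do they tie the libraries of a group to separate cultures or embryos, so p-values here weigh differences only against the spread between these libraries.

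The libraries held 21066815 to 24175719 estimated counts. The level of a gene is its CPM, a count scaled to library size with TMM scaling between libraries. The limit that a count of 0 allows (3 counts) was 0.113 to 0.144 CPM and covers counting error only. The sum of 8 fibroblast markers was 12843 to 48011 CPM in MEF, 5916 to 16544 CPM in MyoD and 3535 to 4893 CPM in F/R/C libraries. Of these markers, 3 of 8 were lower in F/R/C than in MEF libraries by the test below, beside 18.1% of all genes. The sum of 8 skeletal muscle markers was 2.65 and 3.18 CPM in MEF replicates 1 and 2 but 467 CPM in MEF replicate 3. The same sum was 746 to 2362 CPM in MyoD and 28331 to 40345 CPM in F/R/C libraries. Of these markers, 8 of 8 were higher in F/R/C than in MEF libraries, beside 19.5% of all genes. In these bulk libraries, a change in the number of cells of a type and a change in RNA per cell cannot be told apart.

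Between F/R/C and MEF libraries 14 of the 34 tested members passed (edgeR quasi-likelihood test, Benjamini-Hochberg adjusted p under 0.05), 8 higher and 6 lower. Of all 15714 genes tested, 37.6% passed in this comparison, 19.5% higher and 18.1% lower. Between F/R/C and MyoD libraries 13 members passed, 6 higher and 7 lower, against 33.9% of all genes. The 2 comparisons share the F/R/C libraries. In MyoD against MEF libraries 0 members passed by edgeR, in a fit that did not pair libraries. At an unadjusted p under 0.05 there were 8 (4.66% of all genes), and DESeq2 called 1 (1.09% of all genes). The levels of the groups did not overlap for 17 members between F/R/C and MEF libraries (53.2% of all genes) and for 18 members between F/R/C and MyoD libraries (49.8% of all genes). The median log2 fold change of the tested members was -0.26 against MEF and -0.22 against MyoD libraries, beside -0.04 and -0.02 over all genes.

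**Figure D1:**
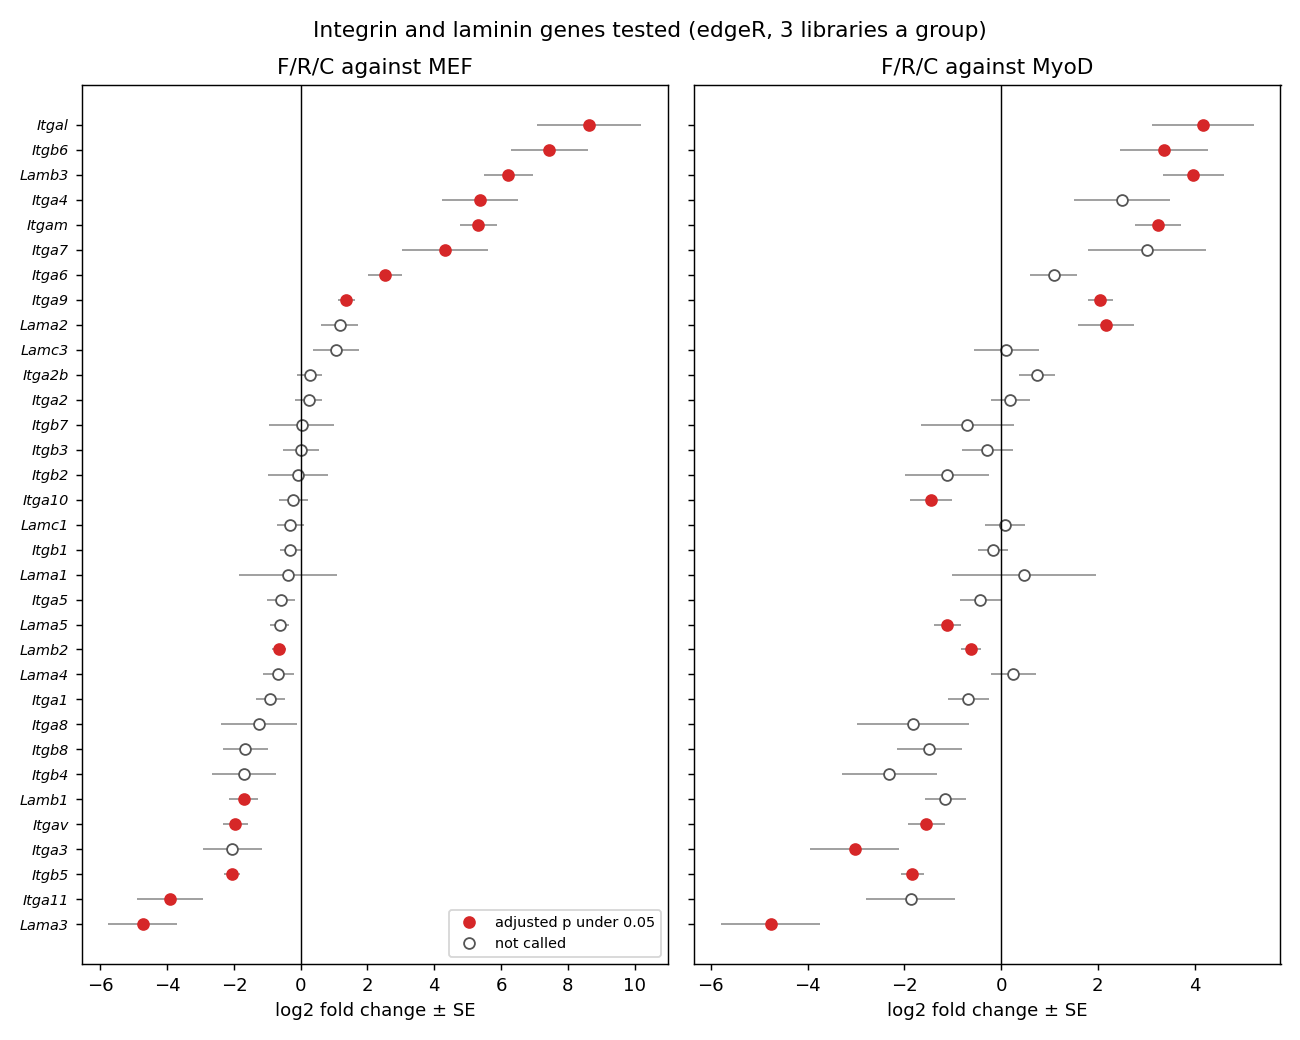
Log2 fold change of 33 of the 34 tested integrin and laminin genes in F/R/C against MEF libraries (left) and against MyoD libraries (right), with the standard error as a horizontal line (edgeR, 3 libraries a group); filled points passed an adjusted p under 0.05. The 14 filled points on the left fall into 8 genes above 0 and 6 below, and the 13 on the right into 6 and 7; Itgal had no count in any MEF library, so its value on the left depends on the fit and is not a measured size.

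The alpha 7 chain gene Itga7 (ENSMUSG00000025348, chromosome 10, 128933818 to 128958282, GRCm38), the muscle laminin receptor, was the most abundant integrin alpha gene, on the scale of TPM, in the F/R/C libraries. It stood at 8.93, 6.48 and 114 CPM in MEF replicates 1 to 3, at 30.4, 36.0 and 255 CPM in MyoD replicates 1 to 3 and at 811, 860.3 and 917 CPM in F/R/C replicates 1 to 3. The F/R/C libraries lay close together and above every other library, while replicate 3 was far above replicates 1 and 2 in both other groups. The rise over MEF passed, with a log2 fold change of 4.32 ± 1.29 (SE, as after every such value here; adjusted p = 0.0289). Against MyoD libraries it did not pass (3.01 ± 1.22, adjusted p = 0.0860). Without MEF replicate 3, which also carried the muscle markers above, the log2 fold change against MEF was 6.76 (adjusted p = 0.00345). Leaving out MEF replicate 1 or 2 or any 1 of the F/R/C libraries ended the call (adjusted p = 0.0552 to 0.0723). Against MyoD libraries the rise passed without MyoD replicate 3 (4.69, adjusted p = 0.0274) and with only the 2 groups in the fit (2.95, adjusted p = 0.0308).

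Itgb1 (ENSMUSG00000025809, chromosome 8, 128685654 to 128733200), the beta chain that pairs with alpha 7 and with most other alpha chains listed here, was abundant in every library. It stood at 1010.4, 834 and 1432 CPM in MEF, 933, 663 and 1354 CPM in MyoD and 878, 858 and 907 CPM in F/R/C libraries. The F/R/C values fell inside the range of both other groups, and the difference from MEF did not pass (log2 fold change -0.31 ± 0.31, adjusted p = 0.466).

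The gene total of Itgb1 hid a difference between its transcript models. The beta 1 chain can end in alternative cytoplasmic tails, and the form called beta 1D, made in striated muscle, takes its last residues from an extra exon. GENCODE M21 places this exon in the model ENSMUST00000149116, here the beta 1D model, a fragment of 4 exons and 711 bases from the end of the gene, and the usual tail in the full model ENSMUST00000090006. The coding part of both last stretches is shown because it is what separates the forms. They lie at chr8:128726983-128727057 and chr8:128732023-128732088 on the plus strand of GRCm38, with the stop codon in capitals.
beta 1D exon: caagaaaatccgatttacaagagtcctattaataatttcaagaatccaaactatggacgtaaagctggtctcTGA
usual beta 1 tail: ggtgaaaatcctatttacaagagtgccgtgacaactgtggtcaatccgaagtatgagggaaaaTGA
The beta 1D model stood at 0, 0.293 and 1.33 TPM (a share of all transcripts that takes length into account) in MEF, 3.30, 5.56 and 12.3 TPM in MyoD and 43.0, 52.0 and 47.0 TPM in F/R/C libraries. The 3 groups did not overlap and stood in that order. It passed against MEF (log2 fold change 6.88 ± 1.20, adjusted p = 0.0108), but not without MEF replicate 2 (adjusted p = 0.0513) and not against MyoD libraries (adjusted p = 0.0902). Of all 44724 transcripts tested, 11.5% passed in F/R/C against MEF, 7.88% in F/R/C against MyoD and 0.0112% in MyoD against MEF libraries. The full model had 477, 404 and 646 TPM in the MEF group against 346, 323 and 262 TPM in F/R/C libraries and did not pass (adjusted p = 0.694). Of the sum of both models, the beta 1D model made up 0%, 0.0726% and 0.205% in MEF, 0.735%, 1.63% and 2.07% in MyoD and 11.1%, 13.9% and 15.2% in F/R/C libraries. Both models share exons, so reads were divided between them by estimation. These shares are not direct counts of reads over the exon.

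Transcript models of Itga7 also differed. The alpha 7 chain is made with either of a pair of mutually exclusive extracellular exons, called X1 and X2, which alter its binding to laminins, and with alternative cytoplasmic tails. The model ENSMUST00000099112 carries an exon of 120 bases (chr10:128941822-128941941) and ENSMUST00000218290 one of 132 bases (chr10:128941445-128941576), called here the X2 and the X1 model. The short model ENSMUST00000219427, the tail exon model, holds a tail exon of 113 bases (chr10:128956611-128956723) that both others lack. All are on the plus strand of GRCm38 and are shown as the pieces that set the models apart, with no part in capitals.
alpha 7 X2 exon: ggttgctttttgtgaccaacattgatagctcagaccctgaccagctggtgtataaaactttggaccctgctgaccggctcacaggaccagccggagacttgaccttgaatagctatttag
alpha 7 X1 exon: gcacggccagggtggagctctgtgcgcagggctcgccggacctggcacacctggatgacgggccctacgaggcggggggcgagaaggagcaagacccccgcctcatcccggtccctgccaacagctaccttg
alpha 7 tail exon: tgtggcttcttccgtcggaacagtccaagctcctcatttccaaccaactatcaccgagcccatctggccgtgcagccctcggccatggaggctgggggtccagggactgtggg
The X2 model stood at 2.56, 1.79 and 13.1 TPM in MEF, 8.22, 13.4 and 41.3 TPM in MyoD and 225, 257 and 188 TPM in F/R/C libraries. It passed against MEF (log2 fold change 5.63 ± 1.04, adjusted p = 0.0134) and against MyoD libraries (3.75 ± 0.95, adjusted p = 0.0497). The second call ended without MyoD replicate 1 or 2 or any 1 of the F/R/C libraries (adjusted p = 0.0917 to 0.158). The X1 model stood at 1.36, 1.31 and 38.4 TPM in MEF, 4.16, 1.91 and 63.2 TPM in MyoD and 66.6, 47.3 and 35.2 TPM in F/R/C libraries. Here replicate 3 of MEF and of MyoD reached the F/R/C range, and no difference passed (adjusted p = 0.475 against MEF). The X2 model made up 65.2%, 57.7% and 25.5% of both models in MEF, 66.4%, 87.5% and 39.5% in MyoD and 77.2%, 84.4% and 84.3% in F/R/C libraries, so its share was lowest in replicate 3 of MEF and of MyoD, and MyoD replicate 2 lay above the F/R/C range. The tail exon model stood at 0.0742, 0 and 4.85 TPM in MEF, 8.19, 12.8 and 30.6 TPM in MyoD and 139, 129 and 254 TPM in F/R/C libraries. It passed against MEF (log2 fold change 7.17 ± 1.58, adjusted p = 0.0245) but not without MEF replicate 1 or 2 or any 1 F/R/C library (adjusted p = 0.0501 to 0.0655), nor against MyoD libraries (adjusted p = 0.126). A further model, Itga7-203, passed as higher against MEF and MyoD libraries. Its call against MEF held with any 1 library left out (log2 fold change 5.59 to 7.10, adjusted p = 0.00696 to 0.0252). The call against MyoD ended without MyoD replicate 1 or 2 or F/R/C replicate 1 or 2 (adjusted p = 0.0660 to 0.103).

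**Figure D2:**
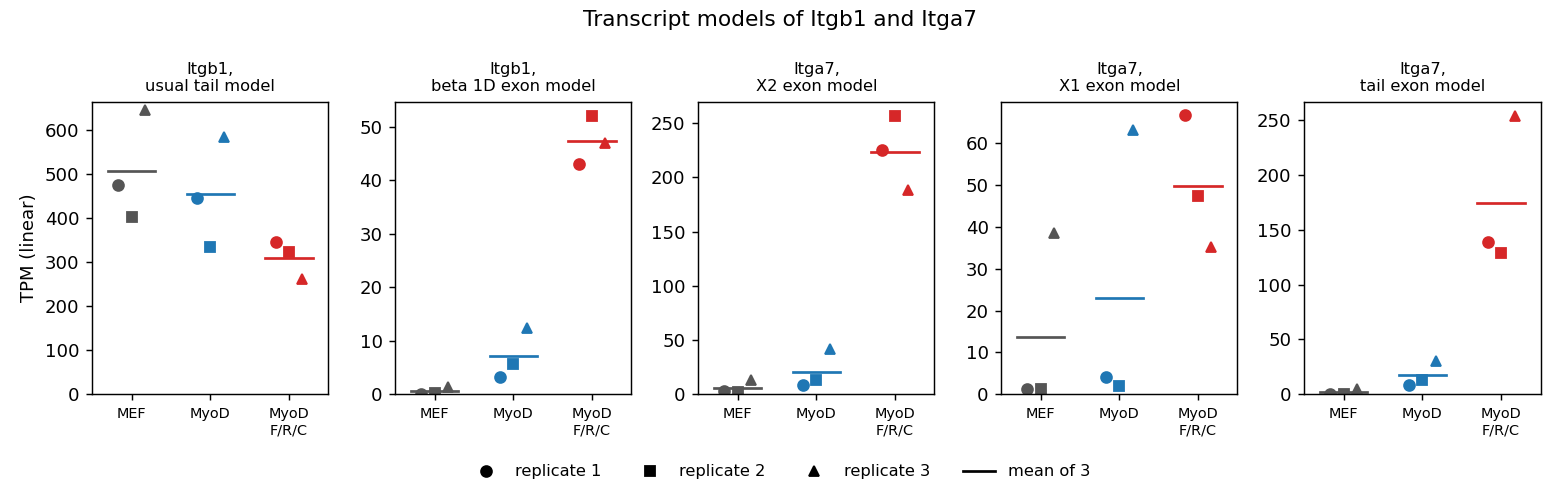
Level in TPM of 2 transcript models of Itgb1 and 3 of Itga7 in each library (linear axes from 0; symbols give the replicate number, horizontal lines the mean of 3). The beta 1D exon model rose to 43.0 to 52.0 TPM in the F/R/C libraries while the usual tail model did not pass; the X1 exon model in replicate 3 of MEF and MyoD reached the F/R/C range, and the X2 exon model did not.

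Itga6 (ENSMUSG00000027111, chromosome 2, 71745616 to 71858416), a laminin receptor chain of stem cells and epithelia, was higher with F/R/C. It stood at 29.9, 16.7 and 14.7 CPM in MEF, 62.9, 22.3 and 82.5 CPM in MyoD and 167, 88.8 and 100.4 CPM in F/R/C libraries. Every F/R/C library lay above every MyoD library, and MEF libraries were lowest apart from MyoD replicate 2. The rise passed against MEF (log2 fold change 2.54 ± 0.51, adjusted p = 0.00549) and not against MyoD libraries (1.08 ± 0.48, adjusted p = 0.114). Among its transcript models, the full coding model (log2 fold change 2.41 ± 0.58, adjusted p = 0.0330) and a shorter noncoding model (2.92 ± 0.52, adjusted p = 0.0118) passed against MEF, the first call ending without any 1 of the 6 libraries (adjusted p = 0.0561 to 0.126) and the second without MEF replicate 2 (adjusted p = 0.0580). Itga3 and Itgb4 had lower means in the F/R/C group. Itga3, the alpha 3 chain, stood at 13.9, 14.7 and 64.7 CPM in MEF, 26.0, 16.9 and 141 CPM in MyoD and 5.79, 9.39 and 7.39 CPM in F/R/C libraries. The F/R/C libraries were below all others, and the fall passed against MyoD (log2 fold change -3.03 ± 0.91, adjusted p = 0.0327) but not against MEF libraries (-2.05 ± 0.88, adjusted p = 0.0986). There it passed by DESeq2 (adjusted p = 0.0359) and with only the 2 groups in the fit (adjusted p = 0.0448), and without MEF replicate 3 the value was -0.98 (adjusted p = 0.357). The call against MyoD ended without MyoD replicate 3, with a log2 fold change of -1.52 (adjusted p = 0.108), and without any 1 F/R/C library (adjusted p = 0.0784 to 0.103). Itgb4, the partner of alpha 6 in epithelial hemidesmosomes, varied widely within groups. It stood at 37.3, 104 and 7.20 CPM in MEF, 57.1, 149 and 20.5 CPM in MyoD and 22.1, 17.2 and 6.34 CPM in F/R/C libraries, with replicate 2 highest and replicate 3 lowest in both MEF and MyoD. Its log2 fold changes were -1.70 ± 0.97 against MEF (adjusted p = 0.196) and -2.31 ± 0.99 against MyoD libraries (adjusted p = 0.100). The second passed by DESeq2 (adjusted p = 0.0271) and with only the 2 groups in the fit (adjusted p = 0.0450).

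Itga4 and Itga9 encode closely related alpha chains that bind VCAM-1 and a cell-binding region of fibronectin apart from the RGD motif, and alpha 4 takes part in contacts between myoblasts. Itga4 (ENSMUSG00000027009, chromosome 2, 79255426 to 79333123) stood at 3.95, 10.02 and 19.5 CPM in MEF, 14.5, 22.8 and 208 CPM in MyoD and 643, 421 and 325 CPM in F/R/C libraries. MEF libraries were lowest apart from MyoD replicate 1, F/R/C libraries were highest, and MyoD replicate 3 stood apart from the other MyoD libraries. It was 41.4-fold higher in F/R/C than in MEF libraries (log2 fold change 5.37 ± 1.14, adjusted p = 0.00701), a call kept under each of the alternatives run. Against MyoD libraries it did not pass (2.50 ± 1.00, adjusted p = 0.0826), but did without MyoD replicate 3 (4.63, adjusted p = 0.00374) and by DESeq2 (adjusted p = 0.0165). On the opposite strand the gene Cerkl overlaps 8.04% of the exon bases of Itga4.

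Itga9 stood at 19.5, 17.3 and 21.4 CPM in MEF, 12.3, 9.21 and 14.5 CPM in MyoD and 58.5, 35.6 and 55.4 CPM in F/R/C libraries. In CPM the 3 groups did not overlap, with MyoD lowest. Itga9 passed against MEF (log2 fold change 1.36 ± 0.25, adjusted p = 0.00390) and MyoD libraries (2.05 ± 0.26, adjusted p = 0.00125). The call against MEF ended when counts were rebuilt from TPM (log2 fold change 0.86, adjusted p = 0.0930). In TPM the MEF (13.0, 6.96 and 12.2) and F/R/C libraries (25.4, 11.8 and 11.7) overlapped. The lower level in MyoD than in MEF libraries did not pass (-0.69 ± 0.25, adjusted p = 0.857).

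Of the receptor chains for RGD-containing ligands such as fibronectin and vitronectin, Itgb5 and Itgav fell with F/R/C and Itgb6 rose. Itgb5 (ENSMUSG00000022817, chromosome 16, 33829665 to 33949338), the beta chain of the vitronectin receptor alpha v beta 5, stood at 506, 459.6 and 671 CPM in MEF, 480.0, 364 and 554 CPM in MyoD and 116, 127 and 149 CPM in F/R/C libraries. MEF and MyoD libraries overlapped, and every F/R/C library was far below them. The fall was 4.17-fold against MEF (log2 fold change -2.06 ± 0.25, adjusted p = 0.000686) and 3.56-fold against MyoD libraries (-1.83 ± 0.24, adjusted p = 0.00147). Its partner Itgav, the alpha v chain, stood at 404, 194 and 313 CPM in MEF, 242, 131 and 315 CPM in MyoD and 94.7, 81.1 and 59.6 CPM in F/R/C libraries. The F/R/C libraries did not reach the lowest of the others. Itgav fell against MEF (log2 fold change -1.95 ± 0.39, adjusted p = 0.00520) and MyoD libraries (-1.55 ± 0.38, adjusted p = 0.0150), the second call ending without F/R/C replicate 3 (adjusted p = 0.0580).

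Itgb6, the beta chain that joins alpha v in epithelia and activates latent TGF-beta, went the other way. It had 0, 0 and 13 counts in the MEF libraries (at most 0.600 CPM), stood at 1.70, 3.10 and 5.34 CPM in MyoD and at 36.7, 35.6 and 32.6 CPM in F/R/C libraries. The 3 groups did not overlap. It passed against MEF (log2 fold change 7.44 ± 1.15, adjusted p = 0.00187) and against MyoD libraries (3.37 ± 0.91, adjusted p = 0.0213), the second call ending without MyoD replicate 1 or 2 or any 1 F/R/C library (adjusted p = 0.0583 to 0.0732). The size against MEF rests on 13 counts of MEF replicate 3. Of the epithelial markers, Krt5 and Krt14 had no count in any library. The 8 markers summed to 0.483 to 1.75 CPM in MEF, 0.224 to 8.03 CPM in MyoD and 3.94 to 6.39 CPM in F/R/C libraries. Against MEF 2 of 3 tested were higher (Cdh1 and Krt8), beside 19.5% of all genes. The part of epithelial cells in the level of Itgb6 was not tested.

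Itga5, the alpha 5 chain of the main fibronectin receptor, stood at 478, 187 and 211 CPM in MEF, 388, 157 and 235 CPM in MyoD and 209, 169 and 202 CPM in F/R/C libraries. In CPM the groups overlapped, and the difference from MEF did not pass (log2 fold change -0.59 ± 0.42, adjusted p = 0.296). In TPM the F/R/C libraries (84.8, 64.2 and 57.9) lay below all others, of which MyoD replicate 2 was lowest (86.0). Itga8, an alpha chain of smooth muscle and mesenchyme, stood at 5.26, 18.4 and 84.4 CPM in MEF, 5.46, 24.0 and 130.1 CPM in MyoD and 13.0, 16.1 and 16.1 CPM in F/R/C libraries. Its order over the replicate numbers was the same in MEF and MyoD. Itgb8, which also joins alpha v, stood at 16.1, 57.4 and 32.1 CPM in MEF, 24.3, 57.5 and 11.1 CPM in MyoD and 17.3, 9.80 and 6.15 CPM in F/R/C libraries. Itgb3, the beta chain shared by platelets and mesenchymal cells, stood at 19.3, 11.0 and 12.9 CPM in MEF, 9.40, 9.10 and 34.3 CPM in MyoD and 17.5, 16.1 and 9.70 CPM in F/R/C libraries. With all 9 libraries in the edgeR fit, Itga8, Itgb8 and Itgb3 passed in no comparison. Itgb8 passed as lower with F/R/C against MyoD libraries without MyoD replicate 3, and against MEF libraries by DESeq2.

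**Figure D3:**
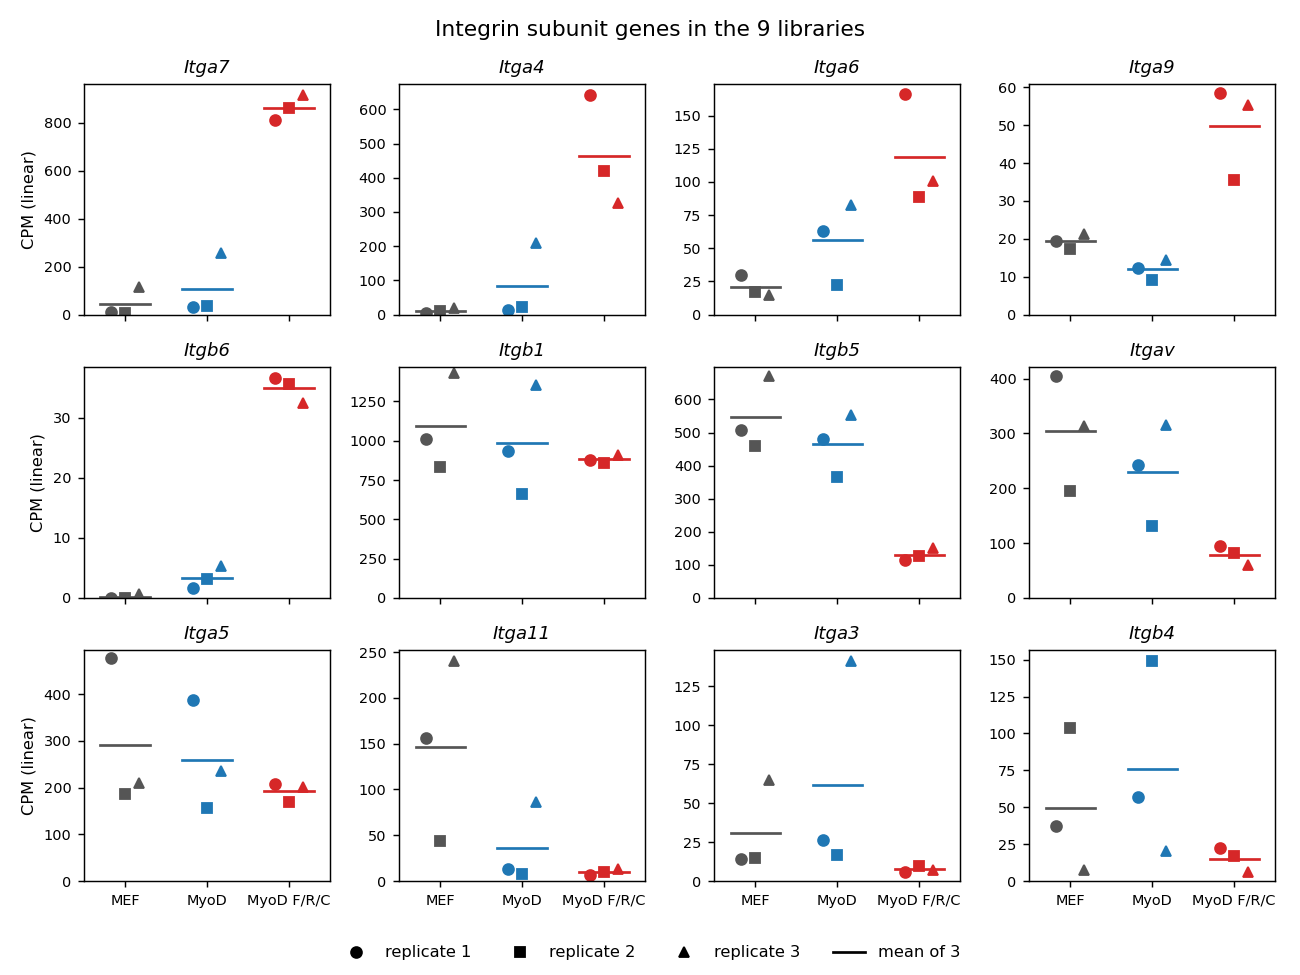
CPM of 12 integrin genes in each library (linear axes from 0, each with its own range; symbols give the replicate number, horizontal lines the mean of 3). Itga7, Itga4, Itga6, Itga9 and Itgb6 have all F/R/C libraries on top, Itgb5, Itgav and Itga3 have them at the bottom, and Itgb1 and Itga5 overlap between the groups.

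Among the collagen receptor chains, Itga11 fell most. This fibroblast receptor for fibrillar collagen (ENSMUSG00000032243, chromosome 9, 62677826 to 62783982) stood at 156, 44.1 and 240.3 CPM in MEF, 13.3, 7.52 and 86.0 CPM in MyoD and 6.63, 9.66 and 13.0 CPM in F/R/C libraries. F/R/C libraries lay below all MEF libraries, while MyoD libraries overlapped both. The difference was 15.04-fold against MEF (log2 fold change -3.91 ± 0.99, adjusted p = 0.0147), a call that ended without F/R/C replicate 1 (adjusted p = 0.0563) or 2 (adjusted p = 0.0518). Against MyoD libraries it did not pass (-1.87 ± 0.92, adjusted p = 0.145), and without MyoD replicate 3 the value was -0.10 (adjusted p = 0.911). The part of the lower fibroblast marker sum, given above, in this fall was not tested. Itga10, a cartilage collagen receptor chain, passed against MyoD libraries. It stood at 8.65, 4.35 and 4.48 CPM in MEF, 19.6, 7.36 and 14.0 CPM in MyoD and 6.29, 3.83 and 4.85 CPM in F/R/C libraries, so that MEF libraries overlapped both other groups. Its level was lower in F/R/C than in MyoD libraries (log2 fold change -1.45 ± 0.44, adjusted p = 0.0329). That call ended without MyoD replicate 1 or 3 or any 1 F/R/C library (adjusted p = 0.0537 to 0.114). The predicted gene Gm42957 shares 33.5% of the exon bases of Itga10 on the same strand. Itga1, a collagen and laminin receptor chain, stood at 54.5, 95.0 and 55.0 CPM in MEF, 45.7, 75.7 and 51.3 CPM in MyoD and 34.6, 57.0 and 16.7 CPM in F/R/C libraries. Itga2 stood at 2.24 to 5.63 CPM over the 9 libraries. Neither Itga1 nor Itga2 passed, although Itga1 passed as lower against MEF libraries with the replicate number as a block and without F/R/C replicate 2.

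Of the integrin chains of blood cells, Itgam and Itgal rose to low levels in F/R/C libraries. Itgam, the alpha M chain of macrophages and neutrophils, had 3, 1 and 2 counts in MEF, 11, 8 and 8 counts in MyoD and 107, 92 and 55 counts in F/R/C libraries. It passed against MEF (log2 fold change 5.32 ± 0.55, adjusted p = 0.000440) and MyoD libraries (3.25 ± 0.47, adjusted p = 0.00209), at a mean of 3.77 ± 0.993 CPM (SD, n = 3) with F/R/C. Summed over libraries, 254 counts against 6 give a ratio of 43.2 to MEF (95% exact interval 19.6 to 119, counting error only). The predicted gene Gm49368 shares 68.7% of its exon bases on the same strand, so counts of the 2 cannot be separated with certainty. Itgal, the alpha L chain of lymphocytes, had 0 counts in every MEF library, 0, 3 and 5 counts in MyoD and 28, 93 and 24 counts in F/R/C libraries. That is at least 15.7-fold higher in F/R/C than in MEF libraries, taking 3 counts per library as the MEF limit (adjusted p = 0.00635). F/R/C replicate 2 was the highest, and without it the bound was 8.34-fold. The log2 fold change against MyoD libraries was 4.17 ± 1.06 (adjusted p = 0.0239). The second call ended without MyoD replicate 2 (adjusted p = 0.0834) or F/R/C replicate 2 (adjusted p = 0.0762). Their shared partner Itgb2, without which neither chain reaches the surface of leukocytes, stayed at 0.0805 to 1.52 CPM and passed in no comparison. Among the leukocyte markers, Ptprc reached 0.224 CPM at most, and Adgre1 and Tyrobp had 0 counts in the F/R/C libraries. Against MEF 2 of 5 tested were higher (Laptm5 and Cd68), beside 19.5% of all genes. The 10 markers summed to 6.64 to 19.0 CPM in MEF, 10.2 to 33.4 CPM in MyoD and 24.9 to 39.2 CPM in F/R/C libraries. Itgad, Itgae and Itgax had at most 28 counts in a library, and Itgb7 stood at 0.233 to 3.27 CPM. Itga2b, the platelet chain, stood at 5.003 to 18.4 CPM and passed in no comparison, with platelet markers summing to at most 5.02 CPM.

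On the scale of TPM, which allows genes to be compared, the make-up of the alpha chains turned over. Of the summed TPM of all integrin alpha genes, Itga7 took 0.958%, 1.32% and 13.5% in MEF, 6.24%, 12.2% and 25.5% in MyoD and 58.1%, 65.8% and 70.0% in F/R/C libraries. Itga5 took 46.1%, 34.9% and 22.6% in MEF, 48.3%, 34.6% and 18.6% in MyoD and 10.2%, 9.15% and 8.32% in F/R/C libraries. Itgav took 24.3%, 23.1% and 19.5% in MEF and 3.23%, 3.31% and 3.79% in F/R/C libraries. Itga7 was thus the first in order in every F/R/C library and in MyoD replicate 3, and Itga5 in the other 5. Of the beta chains, Itgb1 took 54.8%, 49.9% and 56.4% of the sum in MEF and 77.6%, 77.1% and 76.9% in F/R/C libraries, while Itgb5 took 42.3%, 43.3% and 42.1% in MEF and 15.9%, 17.4% and 19.5% in F/R/C libraries. The share of Itgb1 was thus higher in every F/R/C library although its own level in CPM did not pass the test. In TPM Itgb1 itself was lower in every F/R/C library (392, 376 and 309) than in every MEF library (477, 404 and 662). Itgb6 remained a minor chain with 3.11%, 3.08% and 2.26% in F/R/C libraries. These shares were not tested, and they include short transcript fragments. For the laminin beta chains, Lamb1 took 56.2%, 62.3% and 79.0% in MEF and 44.6%, 45.7% and 42.8% in F/R/C libraries, where Lamb2 took the largest share and Lamb3 5.45%, 8.21% and 6.33%. For the alpha chains, Lama2 took 11.2%, 2.55% and 3.98% in MEF, 3.06%, 1.71% and 3.93% in MyoD and 18.7%, 13.2% and 16.2% in F/R/C libraries.

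**Figure D4:**
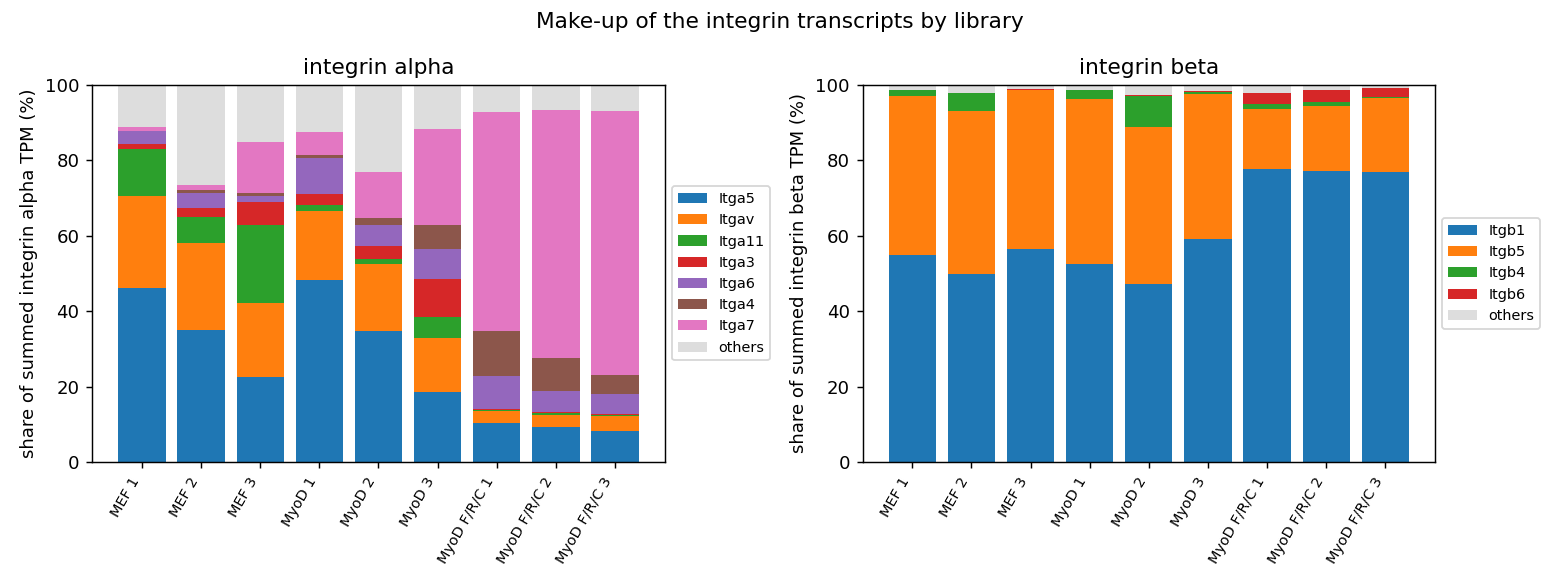
Share in percent of the summed TPM of all integrin alpha genes (left) and all integrin beta genes (right) taken by the named genes in each of the 9 libraries, with the remaining genes in grey. Itga7 takes 58.1% to 70.0% of the alpha chains in the F/R/C libraries, and Itgb1 76.9% to 77.6% of the beta chains.

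Of the laminin alpha chain genes, only Lama2 (ENSMUSG00000019899, chromosome 10, 26980036 to 27619758), the chain of muscle basement membrane, passed as higher with F/R/C. That was against MyoD libraries, with all 9 libraries in the fit. It stood at 61.3, 12.2 and 19.5 CPM in MEF, 14.6, 10.7 and 20.9 CPM in MyoD and 87.0, 73.3 and 48.0 CPM in F/R/C libraries. MyoD libraries were all low, whereas MEF replicate 1 reached the F/R/C range. Lama2 passed against MyoD (log2 fold change 2.17 ± 0.58, adjusted p = 0.0203) and not against MEF libraries (1.16 ± 0.56, adjusted p = 0.132). Without MEF replicate 1 it passed there too (2.07, adjusted p = 0.00814). The call against MyoD ended without MyoD replicate 1 or 2 or F/R/C replicate 1 or 2 (adjusted p = 0.0517 to 0.0744).

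Lama4, the chain of vessels and of the matrix around muscle and fat cells, stood at 201, 175 and 182 CPM in MEF, 137, 90.7 and 64.8 CPM in MyoD and 121, 184 and 44.3 CPM in F/R/C libraries. MyoD libraries lay below MEF libraries, and F/R/C libraries spanned both. It passed in no comparison (log2 fold change -0.68 ± 0.46 in F/R/C against MEF, adjusted p = 0.277). Lama5, a broadly expressed chain, stood at 182, 207 and 226 CPM in MEF, 219.8, 332 and 309 CPM in MyoD and 164, 153 and 82.7 CPM in F/R/C libraries. Every F/R/C library was below every other library. The fall passed against MyoD (log2 fold change -1.11 ± 0.28, adjusted p = 0.0178) but not against MEF libraries (-0.62 ± 0.28, adjusted p = 0.113), and ended without MyoD replicate 2 (adjusted p = 0.0574). Lama3, the chain of epithelial anchoring laminin (chromosome 18), had 157, 155 and 22 counts in MEF, 221, 85 and 37 counts in MyoD and 7, 4 and 1 counts in F/R/C libraries. It fell against MEF (log2 fold change -4.73 ± 1.03, adjusted p = 0.00792) and MyoD libraries (-4.76 ± 1.03, adjusted p = 0.00932), to a level in F/R/C libraries near the limit of detection. The summed counts were 334 in MEF and 12 in F/R/C libraries, a ratio of 27.3 (95% exact interval 15.4 to 53.3, counting error only). Lama1, the chain of early embryonic basement membrane, had 1, 4 and 127 counts in MEF, 3, 12 and 58 counts in MyoD and 46, 38 and 21 counts in F/R/C libraries. It passed in no comparison with all 9 libraries in the fit. Without MEF replicate 3 and MyoD replicate 3 together, it passed as higher with F/R/C against both other groups.

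The common laminin beta chains fell. Lamb1 (ENSMUSG00000002900, chromosome 12, 31265234 to 31329644), the most widespread beta chain, stood at 659, 682 and 1419 CPM in MEF, 738, 423 and 705 CPM in MyoD and 359.9, 314 and 168 CPM in F/R/C libraries. The F/R/C libraries lay below all others. It fell 3.28-fold against MEF (log2 fold change -1.71 ± 0.42, adjusted p = 0.0129) and did not pass against MyoD libraries (-1.15 ± 0.41, adjusted p = 0.0609), although it did by DESeq2 (adjusted p = 0.0291), with total counts only (adjusted p = 0.0384) and with only the 2 groups in the fit (adjusted p = 0.0381). Lamb2, the chain of the neuromuscular synapse, stood at 357, 309 and 258 CPM in MEF, 325, 282 and 297 CPM in MyoD and 220.1, 215 and 156 CPM in F/R/C libraries. The F/R/C libraries were again lowest, but the calls were marginal. The log2 fold change was -0.64 ± 0.21 against MEF (adjusted p = 0.0381) and -0.61 ± 0.21 against MyoD libraries (adjusted p = 0.0489). The first ended without any 1 of MEF replicates 1 and 2 and the F/R/C libraries (adjusted p = 0.0551 to 0.0896), and the second without any 1 of the 6 libraries compared (adjusted p = 0.0683 to 0.133).

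Lamb3 (ENSMUSG00000026639, chromosome 1, 193207699 to 193343878), a beta chain of epithelial laminin, rose from near 0. It had 2, 2 and 8 counts in MEF, 7, 31 and 23 counts in MyoD and 312, 360 and 241 counts in F/R/C libraries, or 13.7 ± 2.47 CPM (SD, n = 3) with F/R/C. The F/R/C libraries were far above all others. Lamb3 passed against MEF (log2 fold change 6.21 ± 0.73, adjusted p = 0.000661) and MyoD libraries (3.98 ± 0.64, adjusted p = 0.00293). The model that held most of the counts also differed between MyoD and F/R/C libraries. In MyoD libraries 93.3%, 94.6% and 91.1% of the estimated counts of Lamb3 lay on ENSMUST00000159955, which starts at 193302243. In F/R/C libraries 0% lay on that model and 85.9%, 85.4% and 97.2% on ENSMUST00000194677, a model of 27 exons that starts at 193207725. That is 94.3 kb before the start of the full model ENSMUST00000016315, with which it shares 22 exons. The upstream model passed against MEF (adjusted p = 0.0251) and MyoD libraries (adjusted p = 0.0199). The exons that set those 2 apart all lie before their first shared exon, and the division of reads between models is an estimate in the deposited values. These models were singled out after their values were seen.

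Lamc1, the common gamma chain, stood at 419, 280.4 and 424 CPM in MEF, 328, 167 and 362 CPM in MyoD and 382, 376 and 150.1 CPM in F/R/C libraries, and the groups overlapped. Lamc3, another gamma chain, stood at 0.277 to 2.06 CPM. Neither Lamc1 nor Lamc3 passed in any comparison. Of the chains of epithelial laminin described here, Lamb3 thus rose and Lama3 fell.

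**Figure D5:**
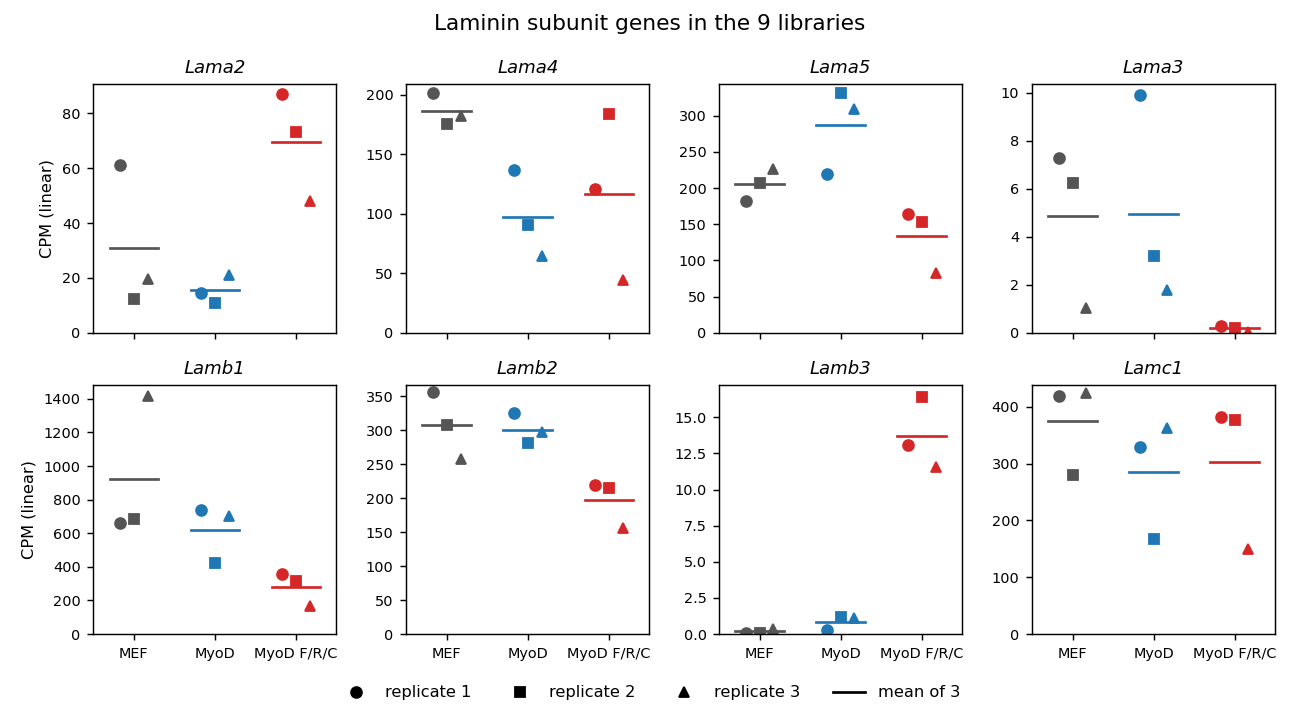
CPM of 8 laminin genes in each library (linear axes from 0, each with its own range; symbols give the replicate number, horizontal lines the mean of 3). F/R/C libraries are lowest for Lamb1, Lamb2, Lama5 and Lama3 and highest for Lamb3, and MEF replicate 1 reaches the F/R/C range for Lama2.

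Within the F/R/C group most laminin genes were lowest in the same library. Of the 11 laminin genes, 9 were lowest in F/R/C replicate 3, as were 39.9% of all genes tested. Among the 34 tested members, 18 had the same order of replicate numbers in MEF and MyoD libraries, beside 42.6% of all genes.

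Between MyoD and MEF libraries the levels did not overlap for 4 of 34 members (7.52% of all genes): Itgb6 and Itgam were higher and Itga9 and Lama4 lower in MyoD libraries. By edgeR 0 members and 0% of all genes passed, with 8 of 34 members (Itga4, Itga6, Itga9, Itga10, Itgal, Itgam, Itgb6 and Lamb3) and 732 of 15714 genes (4.66%) at an unadjusted p under 0.05. DESeq2 called 1 member, Itgb6, and 171 genes (1.09%). In the edgeR fit the log2 fold change of Itgb6 was 4.07 ± 1.05 (adjusted p = 0.466). Without MEF replicate 3, where it has all of its MEF counts, it passed (adjusted p = 0.00742).

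The genes around the members were read from lists of known partners. The counts of every list below stand beside the shares of all genes tested. Of these, 19.5% were higher and 18.1% lower in F/R/C than in MEF libraries, and 17.8% higher and 16.1% lower than in MyoD libraries. Of 29 tested linkers between integrins and actin, 9 were higher and 10 lower in F/R/C than in MEF libraries (median log2 fold change -0.23), and 9 were higher and 9 lower than in MyoD libraries. Itgb1bp2, which encodes melusin, a muscle protein that binds the beta 1 tail, stood at 0.279, 0.282 and 5.86 CPM in MEF, 8.68, 9.74 and 26.2 CPM in MyoD and 284, 358 and 578 CPM in F/R/C libraries (log2 fold change against MEF 7.57 ± 1.29, adjusted p = 0.00280). Its groups did not overlap. It was singled out after its values were seen. Sorbs3 (vinexin; -2.10 ± 0.24, adjusted p = 0.000590), Ptk2b (the kinase Pyk2; -3.81 ± 0.39, adjusted p = 0.000424) and Tgfb1i1 (Hic-5; -1.83 ± 0.28, adjusted p = 0.00181) fell, and Pxn (paxillin; 1.63 ± 0.22, adjusted p = 0.00112) rose. The opposite moves of Pxn and Tgfb1i1 concern 2 related adaptor proteins. The count against MyoD libraries was 11 without MyoD replicate 2 or without F/R/C replicate 2.

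Of 9 tested laminin receptors other than integrins, 3 were higher and 4 lower against MEF libraries (median log2 fold change 0.16), and 3 were higher and 3 lower against MyoD libraries, or 1 and 2 without MyoD replicate 1. Bcam, a receptor for the laminin alpha 5 chain, stood at 4.09, 14.97 and 25.4 CPM in MEF, 20.1, 30.1 and 67.6 CPM in MyoD and 410.5, 546 and 605 CPM in F/R/C libraries (log2 fold change 5.13 ± 0.74, adjusted p = 0.00138). All 4 syndecan genes were lower, as with Sdc2 (-2.08 ± 0.43, adjusted p = 0.00621), Sdc3 (-1.19 ± 0.26, adjusted p = 0.00768) and Sdc1 (-1.29 ± 0.29, adjusted p = 0.00869). Dag1, the gene of dystroglycan, stood at 384, 303 and 392 CPM in MEF and 459, 438 and 307 CPM in F/R/C libraries and did not pass (adjusted p = 0.689). Of 12 tested genes for the sugar chain by which dystroglycan binds laminin, 0 were higher and 4 lower against MEF libraries (median -0.45), among them Rxylt1 (-1.07 ± 0.18, adjusted p = 0.00270) and Pomk (-0.81 ± 0.25, adjusted p = 0.0325), and 0 were higher and 2 lower against MyoD libraries. The 4 calls against MEF became 2 without MEF replicate 2, without any 1 F/R/C library, or with no filter beyond 1 count. The 2 against MyoD became 7 with total counts only and 4 without MyoD replicate 3 or with the replicate block.

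Of 16 tested ligands of integrins other than laminins, 1 was higher and 12 lower against MEF libraries (median -2.57). Against MyoD libraries 1 was higher and 9 lower. Of all genes, 18.1% were lower against MEF and 16.1% against MyoD libraries. Of the 13 called against MEF, 8 were left in number without MEF replicate 1 or F/R/C replicate 2 and 6 without F/R/C replicate 3, which also left 6 against MyoD libraries. Vcam1, the ligand of alpha 4 and alpha 9 integrins, stood at 248, 308 and 405 CPM in MEF, 324, 251 and 187 CPM in MyoD and 18.6, 50.0 and 32.4 CPM in F/R/C libraries (log2 fold change -3.25 ± 0.40, adjusted p = 0.000782). Vcam1 thus fell where Itga4 and Itga9 rose. Emilin1, an elastic fibre protein that binds alpha 4 and alpha 9 integrins (-3.44 ± 0.32, adjusted p = 0.000345), and Mfge8, an RGD ligand of alpha v integrins (-2.11 ± 0.24, adjusted p = 0.000597), also fell, and Tgfb3 rose (0.76 ± 0.25, adjusted p = 0.0438). Of 20 tested partners of laminin in the basement membrane, 4 were higher and 4 lower against MEF libraries (median -0.39), and 4 were higher and 1 lower against MyoD libraries. The 8 calls against MEF became 5 without F/R/C replicate 1 or 3. The 5 against MyoD became 3 without F/R/C replicate 1, F/R/C replicate 3 or MyoD replicate 1, 8 with total counts only or without MyoD replicate 3, and 9 by DESeq2 or with the replicate block. Col15a1, a collagen next to muscle basement membranes, stood at 27.5, 26.7 and 22.4 CPM in MEF and 212, 283 and 193 CPM in F/R/C libraries (log2 fold change 3.17 ± 0.40, adjusted p = 0.000879), with Fras1 (3.48 ± 0.65, adjusted p = 0.00425) and Frem2 (7.01 ± 1.52, adjusted p = 0.00777), extracellular proteins of embryonic basement membranes, also higher. Col4a5, a type IV collagen chain, fell (-3.48 ± 0.57, adjusted p = 0.00247).

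Promoters were compared for the E-box bound by MyoD and other basic helix-loop-helix factors. RefSeq windows (GRCm38.p6, 250 bases before to 50 after a start) were at hand for 23 of the 37 members, Itga7 not among them. The motif CAGCTG, the same on both strands, was in a window of 8 of the 23, and over all 27025 genes with windows in 18.3%. CACCTG, searched on both strands, was in 8 of 23 and in 22.6% of all genes. Of the members with CAGCTG, Itga9 has its window 105 kb after the first annotated start of the gene. The windows of Lamb3 lie 94.3 and 94.5 kb after its first start, near which the model with most F/R/C counts begins. These windows therefore need not be at the starts in use. The looser CANNTG, which includes both, was in 75.0% of all genes. The part of the window of Itga4 before its start is shown as an example that holds the motif (chr2:79255176-79255425, plus strand), with the E-box in capitals.
Itga4 promoter: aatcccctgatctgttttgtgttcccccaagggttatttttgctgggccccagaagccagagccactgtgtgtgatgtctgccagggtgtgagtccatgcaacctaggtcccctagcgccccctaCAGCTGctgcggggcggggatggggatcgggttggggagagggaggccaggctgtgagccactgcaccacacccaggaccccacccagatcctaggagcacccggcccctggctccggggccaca
A match describes these letters only, and binding was not measured.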

How the data were processed

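RNA-seq of 9 libraries (3 groups of 3) was read from transcript tables of 121843 transcripts, in which each has an estimated count and a TPM value, per the file headers, as the authors deposited them. Per the submitters' processing notes the tools were bcl2fastq 2.19, Trimmomatic 0.36, kallisto 0.44 and edgeR 3.28, with GRCm38.p6. Which annotation release and options kallisto ran with, and whether strand was used, is not given in the sources used here. A stranded kit for polyadenylated RNA was used, per the labels' protocols.

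Transcripts were joined by identifier with GENCODE M21 (GRCm38). Of them 121104 joined, and the 739 that did not took 0.200% to 0.494% of each library's counts and were dropped. Estimated counts were summed per gene (35675 genes) and rounded. Genes with enough counts (filterByExpr, minimum count 10, minimum total 15) left 15714, and likewise 44724 transcripts, 81 of them among the 202 of the members. TMM scaling and edgeR's quasi-likelihood test (edgeR 4.0.16, limma 3.58.1, R 4.3.3) were run on all 9 libraries with the group as the factor, with Benjamini-Hochberg adjustment over everything tested and a threshold of 0.05. The SE was taken from the estimate and its F statistic (estimate over root F) and is approximate near 0. Total counts set the limit that a count of 0 allows, as given with the depth. An exact permutation test of 3 against 3 libraries cannot go below 0.1, so none was used. The tests were tested on simulated data.

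The members and lists were chosen with earlier results of these data known. Values by library were given for the muscle laminin receptors, laminins and matrix receptors listed by name and for any other member called with a mean log2 CPM of at least 1. From each partner list up to 4 genes were named by adjusted p. Itgam, Itgal, Lama1, Dag1 and Itgb1bp2 were given outside these rules. Partner lists covered adhesion linkers, basement membrane partners, other laminin receptors, dystroglycan glycosylation and other integrin ligands. Marker lists covered fibroblast, skeletal muscle, smooth muscle, endothelium, epithelium, leukocyte, platelet and glia. Alternatives were DESeq2 1.42.0, its size factors, total counts only, no filter beyond 1 count, a mean CPM of at least 1, only the groups compared, counts rebuilt from TPM, a replicate block, and each library left out in turn. Leaving out MEF replicate 3 and MyoD replicate 3 together was chosen after seeing the data.

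Deviations from group means correlated between same-numbered libraries of MEF and MyoD (0.655, 0.632 and 0.729), so these numbers were read as pairs. The values were 0.142, 0.151 and 0.101 between MEF and F/R/C, and 0.0837, 0.119 and 0.164 between MyoD and F/R/C libraries. These low values do not settle whether the F/R/C numbers are pairs too. The pairing of MEF with MyoD comes from the data, since the labels give only the numbers. The main test used no pairing and treated all 9 libraries as separate, so its p-values for MyoD against MEF include the spread between pairs. The replicate block paired all 3 groups, and no fit paired MEF with MyoD libraries alone. Some genes of the members and lists are not reported here by name, but are included in the counts.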

Additional observations from a re-analysis of the deposited data

How the results depend on the processing

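Comparing F/R/C with MEF libraries, 14 members were called, and this number was 11 to 17 over the alternatives, and 11 to 15 with 1 library left out. Over the alternatives 20.5% to 43.8% of all genes were called, and 26.9% to 33% with 1 library left out. Against MyoD libraries (13) the number was 7 to 14 with 1 library left out: 8 without MyoD replicate 2, F/R/C replicate 1 or F/R/C replicate 3, and 7 without F/R/C replicate 2. The fits with 1 library left out called 22.4% to 32.4% of all genes. The other alternatives gave 11 to 18 members and 17.9% to 40.3% of all genes. In MyoD against MEF libraries (0) the number was 0 to 1 with 1 library left out and 1 by DESeq2. It was 2 (Itga7 and Itgb6) without MEF replicate 3 and MyoD replicate 3 together. The shares of all genes were at most 0.989%, 1.09% and 1.23% in the same order. With the replicate block the counts were 16, 18 and 0, beside 43.8%, 40.3% and 0.0827% of all genes. The calls the block added against MEF libraries included Itga1. Against MyoD libraries its added calls included Itga4 (3.60, adjusted p = 0.0234), Itga6 (1.15, adjusted p = 0.0465), Itga7 (4.08, adjusted p = 0.00664) and Itgb4 (-1.97, adjusted p = 0.0121). Whether the numbers of the F/R/C libraries pair with those of the other groups was not settled. The block ended no call of a member. Itga4, Itga6, Itgam, Itgav, Itgb5, Itgb6, Lama3, Lamb1 and Lamb3 were called against MEF libraries in every alternative run. No result reversed. The cause of the changed calls was not tested. Low counts limit Itgal, Itgam, Itgb6, Lama3 and Lamb3, whose fold sizes rest on few counts in the lower group.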

Other observations

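In the marker lists not given beside a result, genes passed in both directions. Of all genes tested, 19.5% were higher and 18.1% lower in F/R/C than in MEF libraries. The endothelial sum was higher in every F/R/C library than in every other library. The smooth muscle and pericyte markers summed to 1292 to 1676 CPM in MEF, 928 to 1460 CPM in MyoD and 677 to 1399 CPM in F/R/C libraries, with 1 of 8 higher and 2 lower in F/R/C than in MEF libraries. Endothelial markers summed to 3.18 to 4.06 CPM in MEF, 2.06 to 6.40 CPM in MyoD and 9.12 to 14.3 CPM in F/R/C libraries, with Vwf higher and Tek lower of 4 tested. Glial markers summed to 7.21 to 16.8 CPM over the 9 libraries, with 1 of 4 tested (Foxd3) higher in F/R/C than in MEF libraries. Of 2 platelet markers tested, Ppbp was lower.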
